A study of Mus musculus with 12 samples.

Results

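Contractile genes of smooth muscle and myofibroblasts were examined in RNA-seq libraries of mouse back skin scars. The 10 genes, chosen by symbol, were Acta2, Tagln, Cnn1, Myl9, Tpm1, Tpm2, Actn1, Myh11, Mylk and Lmod1, and all 10 were found among the 35976 genes listed for each library. They were compared across 4 groups of 3 male mice aged 8 to 12 weeks. Tem1WT/WT mice carried the intact Tem1 gene (symbol Cd248), and Tem1lacZ/lacZ mice carried a lacZ reporter in its place in every cell, after back-crossing to C57BL/6J. All mice received a 1.5 cm split wound and, 6 days later, a plastic device; in the traction groups it was lengthened by 1 mm a day to 8 mm, and in the sham groups it stayed unstretched. Unsorted tissue from a part of each scar was sequenced, so each value mixes fibroblasts, vessels, muscle, epidermis and leukocytes. In such bulk tissue, fewer cells of a type and less RNA per cell cannot be told apart.

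A contractile cell pulls when myosin slides along actin filaments. In smooth muscle the filament is built of α-smooth muscle actin (Acta2) covered by tropomyosins (Tpm1, Tpm2), the motor is smooth muscle myosin heavy chain (Myh11) with its regulatory light chain (Myl9), and the kinase Mylk switches it on by phosphorylating that light chain. Calponin (Cnn1) and transgelin (Tagln, SM22α) bind the filament, leiomodin (Lmod1) starts new filaments, and α-actinin 1 (Actn1) cross-links filaments at focal adhesions and dense bodies. Myofibroblasts, the contractile fibroblasts of healing wounds, take up Acta2 into stress fibres, whereas Myh11 and Lmod1 are known chiefly from vascular and arrector pili smooth muscle. Actn1, Tpm1 and Myl9 are also used by many non-muscle cells. Serum response factor (SRF), which binds the CArG box, drives many of these genes together with myocardin and its relatives.

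Upstream sequences are shown for Myl9, the one member whose window in the promoter table held an exact CArG box, and for Actn1, the one member called in any comparison. Both come from the RefSeq promoter table (GRCm38.p6), which held 8 of the 10 members; Tagln and Myh11 had no entry. The stretches end where the first annotated transcript begins, and run 5′ to 3′ on the strand of the gene. Myl9 is at chr2:156775214-156775407 (plus strand) and Actn1 at chr12:80260421-80260613 (minus strand). Capitals mark the CArG box, CATTCC (an MCAT element) and GGGCGG (a GC box), with the last 2 motifs read on both strands; none of the capitals overlap.
Myl9: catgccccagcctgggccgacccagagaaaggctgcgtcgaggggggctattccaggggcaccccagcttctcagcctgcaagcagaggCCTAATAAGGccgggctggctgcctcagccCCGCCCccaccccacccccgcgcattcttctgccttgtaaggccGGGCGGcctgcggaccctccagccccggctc
Actn1: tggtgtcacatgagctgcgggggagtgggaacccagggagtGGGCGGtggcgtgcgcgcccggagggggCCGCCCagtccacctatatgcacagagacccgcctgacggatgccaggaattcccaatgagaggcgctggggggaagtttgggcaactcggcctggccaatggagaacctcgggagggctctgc
The motif counts cover the full 250 bases before the start used in the table, which for Myl9 lies 56 bases and for Actn1 57 bases inside the first annotated transcript. For the other 6 members it lies between 6 and 39751 bases inside, the last in Mylk. An exact CArG box stood in Myl9 only, 105 bases before the first annotated start, and in 1.47% of all 32851 promoters in the table. CATTCC stood in Acta2, Tpm1, Mylk and Lmod1, and in 12.6% of all promoters. GGGCGG stood in Myl9, Tpm1, Tpm2, Actn1 and Lmod1, with 4 copies in Actn1, of which the 2 shown lie before the first annotated start, and in 32.7% of all promoters. TATAAA, searched on both strands, stood in none of the 8 windows and in 12.4% of all. The Actn1 window held 18 CpG and that of Acta2 4, against a median of 6 over all promoters. These are matches of letters in short windows. Those of Tpm1 and Mylk hold 0 bases before the first annotated start, so the sequence just before the starts of these genes was not searched. Those of Acta2 and Tpm2 hold only the last 33 and 39 bases before the start, and sequence farther upstream was not searched. Distal and intronic elements were not searched either.

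Depth was high and the genotype labels held. Library totals ranged from 41536788 to 64644293 counts. Levels are given in CPM, the counts of a gene scaled to a common library size, after TMM normalization between the libraries. Cd248 lay between 92.4 and 337 CPM in the 6 Tem1WT/WT libraries and between 0 and 0.248 CPM in the 6 Tem1lacZ/lacZ libraries. The 10 keratinocyte and hair follicle markers summed to 16500 to 49200 CPM. In 4 libraries other tissue stood apart. Tem1WT/WT sham replicate 1 had 20800 CPM over the 18 skeletal muscle markers, against 514 to 5520 CPM in the other 11 libraries. Tem1WT/WT traction replicate 1 had 7990 CPM over the 9 neutrophil markers tested, against 133 to 820 CPM elsewhere. Tem1lacZ/lacZ traction replicate 1 had 49200 CPM of keratinocyte and hair follicle markers, against at most 33200 CPM elsewhere. Tem1lacZ/lacZ sham replicate 1 had 5690 CPM over the 10 adipocyte markers, against 177 to 2920 CPM elsewhere.

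Across all scars the 10 genes spanned a wide range of abundance. Per kilobase of exon, the mean over 12 libraries was 138 CPM for Acta2, 95.1 CPM for Tpm2, 94.0 CPM for Tpm1 and 75.1 CPM for Myl9. Actn1 followed with 29.3 CPM, Myh11 with 11.8 CPM, Mylk with 7.26 CPM, Cnn1 with 3.10 CPM, Lmod1 with 1.29 CPM and Tagln with 0.227 CPM per kilobase. Acta2 was above Tpm2 in 10 of 12 libraries, Tpm1 above Myl9 in 8 and Myl9 above Actn1 in 11. The order of Tpm2 and Tpm1 was not settled: Tpm2 was the higher in only 2 libraries, and its mean was raised by the library rich in skeletal muscle RNA. From Myh11 downwards each gene was above the next in 12 of 12 libraries. Exons of all transcripts of a gene were joined for its length, which lowers the value of genes with long alternative transcripts such as Mylk.

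Tagln, usually an abundant marker of smooth muscle, was nearly uncounted here. Its 12 libraries held between 3 and 37 counts, or 0.0714 to 0.747 CPM. Its paralog Tagln2, which many non-muscle cells express, had group means of 231 to 381 CPM. Of the 1988 exonic bases of Tagln (chr9:45929628-45936058, minus strand), 87.2% lie within the RefSeq extent of Pcsk7, 5.4% within its GENCODE exons and 62.4% within exons of Gm48529, both on the opposite strand. Pcsk7 was counted at group means of 47.0 to 57.5 CPM. The strand setting of the counting is not given in the sources used here, and reads of these genes may not be told apart without strand. The part of this overlap in the low Tagln count was not tested. Of the other 9 members, Mylk had 5.6% of its exonic bases within another RefSeq gene and the rest 0%. Among GENCODE transcripts, 3.88% of the 150-base windows of Actn1 also occurred in the antisense gene Gm47766 and 1.045% of those of Mylk in other genes.

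**Figure D1:**
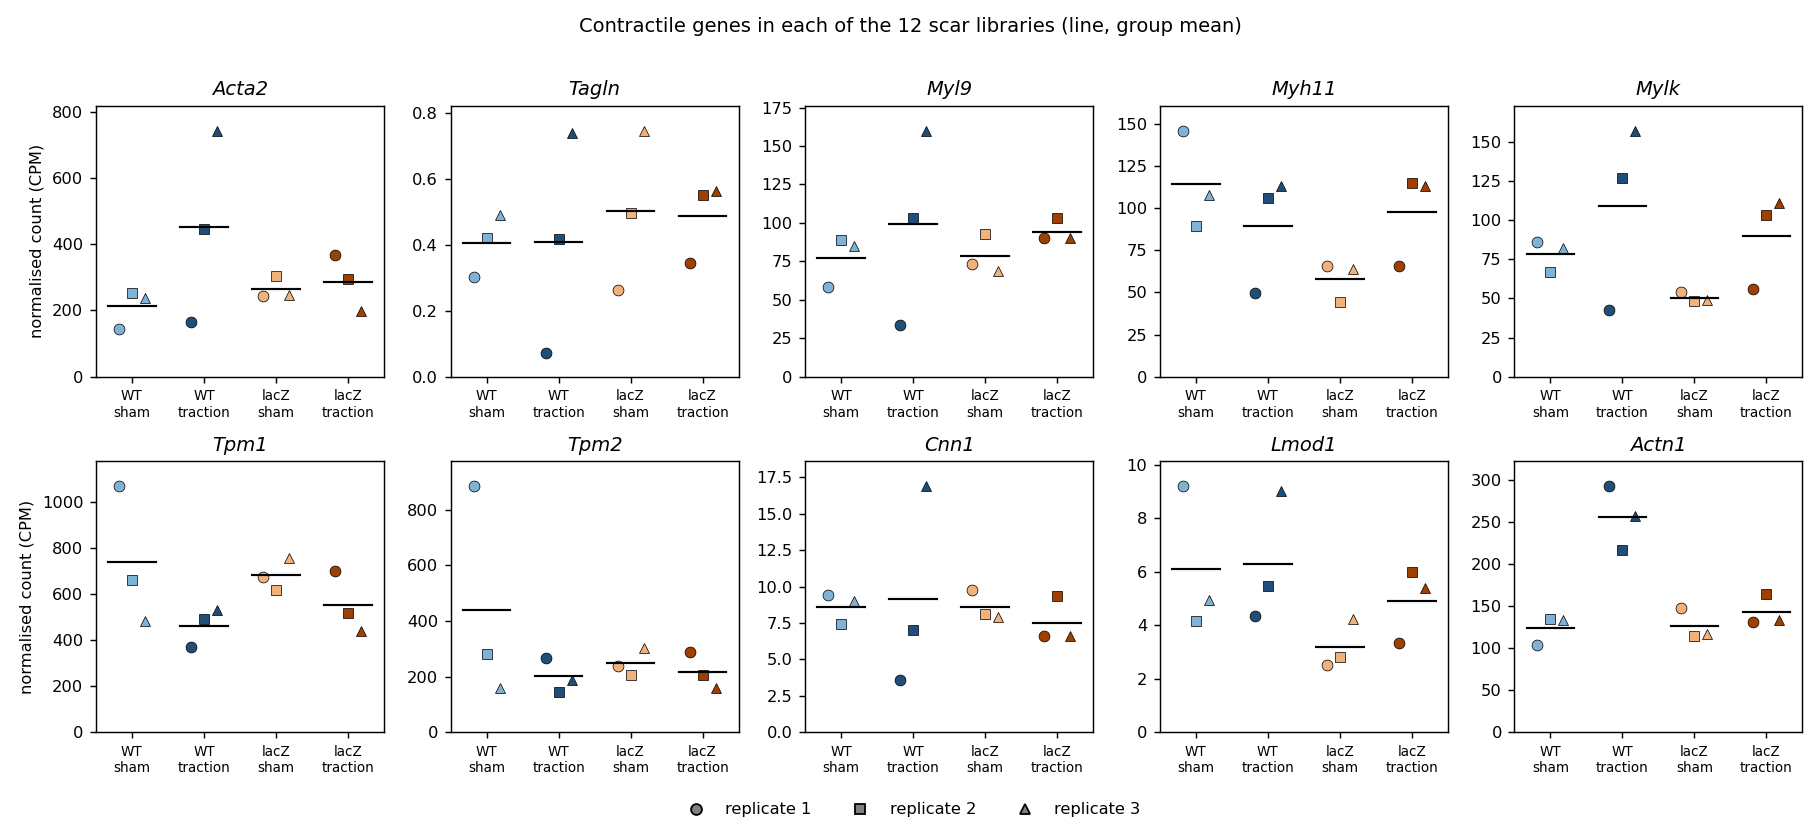
Normalised count in CPM (linear axes from 0) of each contractile gene, with 1 point per library, marker shape for the replicate number and a line at the group mean (n = 3). In Actn1 the 3 Tem1WT/WT traction libraries lie at 217 to 293 CPM, above the other 9, while most other genes are spread widely within the Tem1WT/WT traction group.

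The spread between mice was itself uneven. In the Tem1WT/WT traction group, 5 of the 10 genes had a coefficient of variation above 50%, against 1 in the Tem1WT/WT sham group and 0 in either Tem1lacZ/lacZ group. Without Tem1WT/WT traction replicate 1 the count in its group was 1 of 10, over the 2 libraries left, and without replicate 2 or 3 it was 6 or 5. Leaving out 1 library gave 0 to 2 in the Tem1WT/WT sham group, 0 to 1 in the Tem1lacZ/lacZ sham group and 0 in the Tem1lacZ/lacZ traction group. Tem1WT/WT traction replicate 1, the neutrophil-rich library, held the lowest level of 5 members (Tagln, Cnn1, Myl9, Tpm1 and Mylk) and the highest of 1, Actn1. Replicate 3 of the same group held the highest level of 4 members (Acta2, Myl9, Mylk and Cnn1). Tem1WT/WT sham replicate 1, the library rich in skeletal muscle RNA, held the highest level of Tpm1, Tpm2, Myh11 and Lmod1 and the lowest of Acta2 and Actn1. The remaining libraries held few extremes.

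The first question was what traction did to these genes in scars with Tem1. A single member of the 10 passed the test. Actn1, at chr12:80167542-80260420, had 104, 135 and 133 CPM in the Tem1WT/WT sham libraries and 293, 217 and 257 CPM in the Tem1WT/WT traction libraries. The groups did not overlap. Actn1 rose 2.06-fold, a log2 difference of 1.04 ± 0.18 (SE), with an adjusted p of 0.0252 from the quasi-likelihood test of edgeR. That test called 9.15% of all genes in this comparison, so 1 of 10 members was close to the share among all genes. At an unadjusted p under 0.05, 3 members (Actn1, Acta2, Tpm1) passed, against 31.4% of all genes. Actn1 was also the sole member whose groups did not overlap, against 35.7% of all genes.

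The call on Actn1 was sensitive to the sham libraries. Without Tem1WT/WT sham replicate 1 its adjusted p was 0.116, and without replicate 2 it was 0.0869; in both fits 0 of all genes tested were called. The size of the rise held between 0.81 and 1.16 on the log2 scale over the 22 alternatives.

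Acta2, the usual marker of myofibroblasts (chr19:34240336-34255585), differed widely between the mice with traction. Its level was 144, 254 and 239 CPM in the Tem1WT/WT sham libraries and 165, 446 and 743 CPM in the Tem1WT/WT traction libraries. Replicates 2 and 3 with traction were above every sham library, and replicate 1 was inside the sham range. The fitted log2 difference was 1.09 ± 0.45, as large as that of Actn1 but with an adjusted p of 0.126. Without Tem1WT/WT traction replicate 1 it was 1.46 with an adjusted p of 0.0461, and without Tem1WT/WT sham replicate 1 it was 0.87 with an adjusted p of 0.331. Without Tem1WT/WT traction replicate 3, the library with 743 CPM, it was 0.53 with an adjusted p of 0.438. In the fit that called Acta2, 2 of 10 members were called, against 1.86% of all genes. No other leave-out brought Acta2 past the threshold.

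Myl9 and Mylk, the light chain and its kinase, showed the same divided traction group. Myl9 had 58.2, 88.9 and 84.7 CPM with sham and 33.9, 103 and 160 CPM with traction. Mylk had 86.0, 66.7 and 82.1 CPM with sham and 42.8, 127 and 157 CPM with traction. In both genes traction replicate 1 lay below all sham libraries and replicates 2 and 3 lay above them. The log2 difference was 0.36 ± 0.41 for Myl9 (adjusted p = 0.583) and 0.47 ± 0.39 for Mylk (adjusted p = 0.435). Without traction replicate 1 these were 0.75 and 0.84 (adjusted p = 0.0817 and 0.0842). Leaving out 1 library gave -0.17 to 0.75 for Myl9, the lowest without traction replicate 3, and 0.12 to 0.84 for Mylk.

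The tropomyosins had lower estimates with traction. Tpm2 had 885, 280 and 157 CPM in the sham libraries and 268, 145 and 188 CPM in the traction libraries. Its log2 difference was -1.14 ± 0.53 (adjusted p = 0.166), but -0.13 without sham replicate 1. Tpm1 had 1070, 662 and 481 CPM with sham and 368, 491 and 531 CPM with traction. Its log2 difference was -0.67 ± 0.29 (adjusted p = 0.14), and -0.31 without sham replicate 1. So a single sham library carried most of the difference in Tpm2 and a part of that in Tpm1.

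Both tropomyosins are also built into skeletal muscle, and their levels went with skeletal muscle markers. Over the 12 libraries, Pearson's r of log2 CPM with the mean of the 18 skeletal markers was 0.83 for Tpm2 and 0.67 for Tpm1. Without the 2 Tem1WT/WT libraries that stood apart it was 0.75 and 0.63. All 18 skeletal markers had lower estimates with traction in Tem1WT/WT scars. An unadjusted p under 0.05 was reached by 18, against 31.4% of all genes. Of the markers 1 was called, the titin cap gene Tcap, against 9.15% of all genes. Without sham replicate 1, 8 had an unadjusted p under 0.05, against 4229 of 19308 genes, and 0 were called, as were 0 of all genes tested. The median over the markers went from -2.83 to -1.61. Their summed level was 2020 to 20800 CPM with sham and 514 to 3040 CPM with traction. Acta2, Actn1, Myl9 and Mylk ran the other way, with r of -0.76, -0.66, -0.56 and -0.51, or -0.73, -0.81, -0.76 and -0.76 without these 2 libraries. After taking out the group means, r was -0.67 for Acta2, -0.76 for Myl9 and -0.55 for Mylk, but -0.02 for Actn1. It was 0.90 for Tpm2 and 0.47 for Tpm1. The genes compared come from the same libraries and so share their depth and tissue make-up, and the part of muscle content in these values was not tested.

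**Figure D2:**
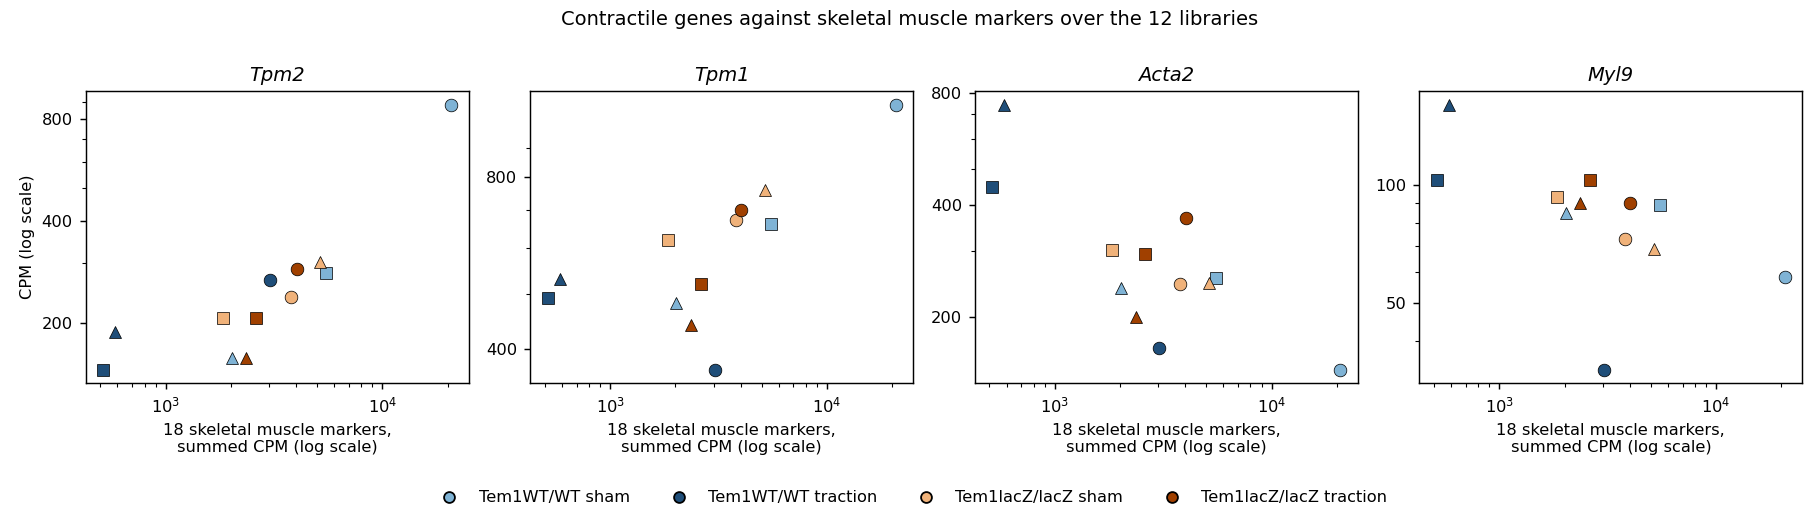
Level of 4 contractile genes in CPM against the summed CPM of 18 skeletal muscle markers, both on log scales, with 1 point per library coloured by group (circle, square and triangle for replicates 1, 2 and 3). Tpm2 and Tpm1 are highest in the sham library with 20800 CPM of skeletal markers, where Acta2 is at its lowest.

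The genes most restricted to smooth muscle did not pass the test in Tem1WT/WT scars. Myh11 (chr16:14194527-14292188) had 146, 89.3 and 108 CPM with sham and 49.9, 106 and 113 CPM with traction, a log2 difference of -0.35 ± 0.33 (adjusted p = 0.497). Without the 2 Tem1WT/WT libraries that stood apart the estimate was 0.15. Cnn1 had 9.42, 7.41 and 8.99 CPM with sham and 3.59, 7 and 16.9 CPM with traction. Lmod1 had 9.2, 4.16 and 4.93 CPM with sham and 4.33, 5.47 and 9 CPM with traction. Including Tagln, Cnn1, Lmod1 and Myl9, 4 members had estimates within 1 SE of 0, from 0.02 to 0.36 on the log2 scale. Leaving out 1 library gave -0.70 to 0.45 for Cnn1 and -0.71 to 0.49 for Tagln, the lowest without traction replicate 3 and the highest without traction replicate 1. For Lmod1 it gave -0.31 without traction replicate 3 to 0.46 without sham replicate 1. The median log2 difference over the 10 members was 0.07, against -0.01 over all genes tested. It was -0.43 without traction replicate 3 and 0.57 without the 2 Tem1WT/WT libraries that stood apart.

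In Tem1lacZ/lacZ scars, traction was followed by a different set of estimates and by no call. The test of edgeR called 0% of all genes in this comparison, whereas 1530 genes (8.12%) had an unadjusted p under 0.05; DESeq2 called 28 genes and limma-voom 435, none of them a member. Myh11 had 65.5, 44.1 and 64.0 CPM with sham and 65.7, 115 and 113 CPM with traction. Its groups did not overlap, although traction replicate 1 was close to the highest sham library, and its log2 difference was 0.75 ± 0.33 (adjusted p = 0.601). It was the only member with an unadjusted p under 0.05.

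Mylk and Lmod1 stood beside Myh11. Mylk had 54.0, 48.1 and 48.7 CPM with sham and 55.7, 103 and 111 CPM with traction, which did not overlap either, with a log2 difference of 0.84 ± 0.39 (adjusted p = 0.622). Thus 2 of 10 members did not overlap between the groups, against 12.9% of all genes. Lmod1 had 2.5, 2.8 and 4.22 CPM with sham and 3.35, 5.97 and 5.39 CPM with traction, a log2 difference of 0.63 ± 0.39 (adjusted p = 0.668). In all 3 genes replicate 1 with traction lay at or near the sham level and replicates 2 and 3 lay above every sham library. That replicate was the library with the most keratinocyte and hair follicle RNA, and without it the estimates were 1.02 for Myh11, 1.14 for Mylk and 0.89 for Lmod1 (adjusted p = 0.14, 0.164 and 0.268). Without sham replicate 1, the library with the most adipocyte RNA, they were 0.90, 0.94 and 0.53.

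Of the other 7 members in the Tem1lacZ/lacZ scars, 6 had estimates within 1 SE of 0 and Tpm1 did not. Acta2 had 245, 303 and 246 CPM with sham and 368, 295 and 199 CPM with traction, a log2 difference of 0.12 ± 0.44 with a 95% interval of -0.90 to 1.14. Actn1 had 148, 114 and 117 CPM with sham and 131, 164 and 133 CPM with traction, a log2 difference of 0.17 ± 0.18 with a 95% interval of -0.23 to 0.58. That interval does not reach the 1.04 found in Tem1WT/WT scars, whereas that of Acta2 includes the 1.09 found there. Those 2 estimates have their own SE (0.18 and 0.45), so this does not compare the genotypes. The interaction below does, and it called neither gene (adjusted p = 0.548 and 0.629 with edgeR). Tpm1 had 673, 620 and 758 CPM with sham and 700, 519 and 441 CPM with traction, a log2 difference of -0.31 ± 0.29. Tpm2, Myl9, Cnn1 and Tagln lay with Acta2 and Actn1 within 1 SE of 0, in the range of -0.20 to 0.27, with adjusted p of 0.794 to 0.99.

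**Figure D3:**
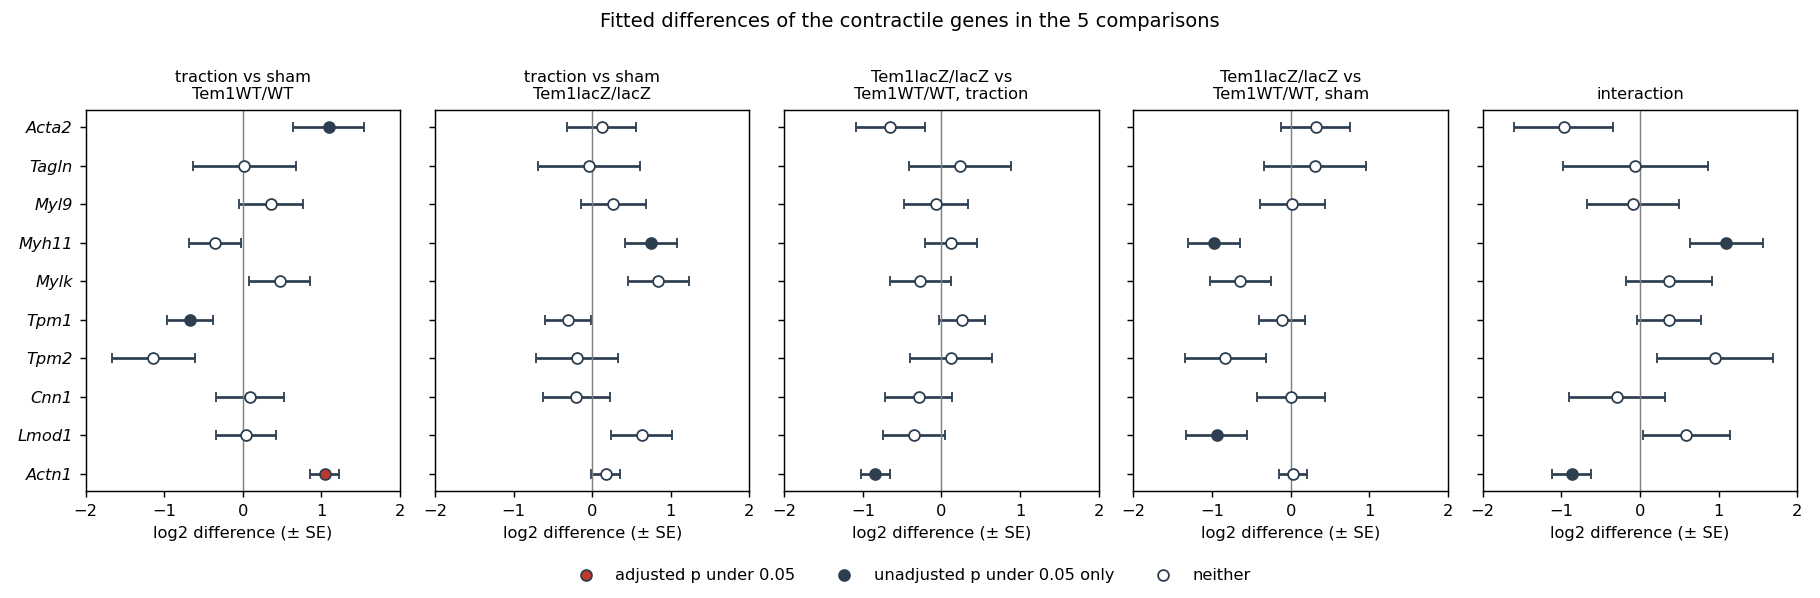
Fitted log2 differences (points) with their SE (bars) of the 10 genes in the 5 comparisons, from the model of all 12 libraries. Actn1 with traction in Tem1WT/WT scars is the single red point at 1.04, and the estimates of Myh11 lie on opposite sides of 0 in the first and second panels (-0.35 and 0.75).

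The genotypes were next compared under traction. None of the 10 members was called, while 0.106% of all genes were. Actn1 was the nearest, with 131, 164 and 133 CPM in Tem1lacZ/lacZ scars below the 293, 217 and 257 CPM of Tem1WT/WT scars. Its groups did not overlap, as for 26.6% of all genes, and its log2 difference was -0.84 ± 0.18 (adjusted p = 0.0834). It ranked 123 of 18853 genes by p, and it was the one member with an unadjusted p under 0.05, against 26.1% of all genes. DESeq2 called it, with an adjusted p of 0.0013, in a fit that called 12.4% of all genes. So did edgeR without Tem1WT/WT traction replicate 2, with 0.0239, in a fit that called 7.32% of all genes. Over the alternatives its log2 difference stayed between -0.95 and -0.70.

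Acta2 was next, with 368, 295 and 199 CPM in Tem1lacZ/lacZ scars and 165, 446 and 743 CPM in Tem1WT/WT scars under traction. The Tem1WT/WT values enclosed the Tem1lacZ/lacZ values from both sides, and the log2 difference was -0.65 ± 0.44 (adjusted p = 0.369). It moved from -0.08 to -1.04 over the alternatives. The other 8 members were within 1 SE of 0, from -0.35 for Lmod1 to 0.26 for Tpm1. Several changed direction when 1 library was left out. Cnn1 was at -0.63, Mylk at -0.62, Myl9 at -0.44 and Tagln at -0.20 without Tem1WT/WT traction replicate 1, and at 0.52, 0.10, 0.47 and 1.00 without replicate 3 of that group. The median over the 10 members was -0.17, against 0.01 over all genes, and it was -0.48 and 0.22 without these same libraries.

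Between the genotypes without traction no member was called, against 0.0106% of all genes, and the estimates farthest from 0 were those of Myh11, Lmod1 and Tpm2. Myh11 was at 65.5, 44.1 and 64.0 CPM in the Tem1lacZ/lacZ sham libraries, all below the 146, 89.3 and 108 CPM of Tem1WT/WT, a log2 difference of -0.98 ± 0.33 (adjusted p = 0.409). Mylk was at 54.0, 48.1 and 48.7 CPM, all below 86.0, 66.7 and 82.1 CPM, with a log2 difference of -0.64 ± 0.39 (adjusted p = 0.527). Lmod1 was at 2.5, 2.8 and 4.22 CPM against 9.2, 4.16 and 4.93 CPM, with a log2 difference of -0.94 ± 0.39 (adjusted p = 0.415). The groups of Myh11 and Mylk did not overlap, 2 of 10 members against 26.8% of all genes, and Myh11 and Lmod1 had an unadjusted p under 0.05, against 11.7% of all genes.

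These lower estimates did not rest wholly on the sham library rich in skeletal muscle RNA. Without it the log2 difference was -0.77 for Myh11, -0.56 for Mylk and -0.52 for Lmod1, with adjusted p of 0.62, 0.702 and 0.684. That of Tpm2 did: it was -0.83 ± 0.52 with all libraries and 0.18 without. The remaining 6 members lay within 1 SE of 0, from -0.11 to 0.32, and Acta2 had 245, 303 and 246 CPM against 144, 254 and 239 CPM.

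Whether traction acted differently in the 2 genotypes was tested as an interaction. The test called 0% of all genes, with 1680 (8.91%) at an unadjusted p under 0.05; DESeq2 called 69 genes and limma-voom 0. Of the 10 members, 2 had an unadjusted p under 0.05, beside that 8.91% of all genes. The traction effect on Actn1 was lower in Tem1lacZ/lacZ scars by 0.87 ± 0.25 log2 units (adjusted p = 0.548), and that on Myh11 was higher by 1.1 ± 0.46 (adjusted p = 0.548). For Acta2 the difference of effects was -0.97 ± 0.63 (adjusted p = 0.629), for Tpm2 0.95 ± 0.74 and for Lmod1 0.59 ± 0.55. The estimate for Tpm2 was -0.06 without Tem1WT/WT sham replicate 1. For Acta2 it ran from -1.32 without Tem1WT/WT traction replicate 1 to -0.38 without replicate 3 of that group, and for Lmod1 from 0.17 without Tem1WT/WT sham replicate 1 to 0.97 without Tem1WT/WT traction replicate 3. The median over the members was 0.15, and it changed sign when 1 library was left out, from -0.20 without Tem1WT/WT traction replicate 1 to 0.62 without replicate 3 of that group.

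The members varied together to differing degrees. Within groups, that is after taking out the group means, Pearson's r over the 12 libraries was 0.93 between Acta2 and Myl9, 0.91 between Myh11 and Mylk, 0.78 between Myl9 and Mylk, 0.77 between Myh11 and Lmod1, 0.77 between Tpm1 and Tpm2, 0.75 between Acta2 and Cnn1 and 0.65 between Mylk and Lmod1. It was 0.28 between Acta2 and Myh11 and -0.38 between Acta2 and Tpm2. Tagln and Cnn1 went with both Myl9 (0.87 and 0.83) and Mylk (0.81 and 0.82). Without the 2 Tem1WT/WT libraries that stood apart, r of the levels went from 0.82 to 0.38 between Tagln and Myl9, from 0.50 to 0.37 between Tagln and Mylk, from 0.75 to 0.64 between Cnn1 and Myl9 and from 0.56 to 0.40 between Cnn1 and Mylk. Actn1 had negative values with all of the other 9, from -0.06 with Cnn1 to -0.55 with Tpm1. Without the 2 Tem1WT/WT libraries that stood apart, r of the levels between Actn1 and Acta2 was 0.82, against 0.40 with them. Between Actn1 and Mylk it was 0.83, against 0.27, so r of the levels turned on those libraries. Within-group r was not computed without them. The libraries of a group share their handling and the r values are descriptions.

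The ratio of Acta2 to Myh11 was looked at after the values were seen, so it is a description with no test. Per kilobase of exon, Acta2 was 3.43, 9.84 and 7.69 times Myh11 in the Tem1WT/WT sham libraries and 11.4, 14.5 and 22.8 times in the Tem1WT/WT traction libraries. These groups did not overlap, and the mean log2 ratio was higher by 1.29 with traction. In Tem1lacZ/lacZ scars the ratio was 12.9, 23.8 and 13.3 with sham and 19.4, 8.92 and 6.10 with traction, with overlap and a mean log2 ratio lower by 0.65. Leaving out 1 of these 6 libraries gave a ratio lower by 0.28 (without traction replicate 3) to 1.12 (without traction replicate 1, where the groups did not overlap). The sham groups of the genotypes did not overlap either, with the mean log2 ratio higher in Tem1lacZ/lacZ by 1.33. Without Tem1WT/WT sham replicate 1 the differences of 1.29 and 1.33 were 0.84 and 0.88. Under traction the genotypes overlapped, but not without Tem1lacZ/lacZ traction replicate 1.

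**Figure D4:**
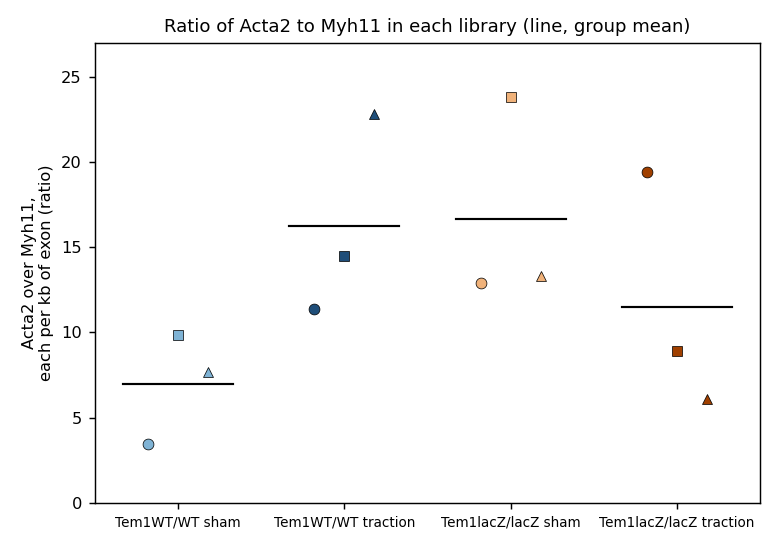
Ratio of Acta2 to Myh11, each in CPM per kilobase of exon (linear axis from 0), with 1 point per library (circle, square and triangle for replicates 1, 2 and 3) and a line at the group mean. All 3 Tem1WT/WT sham libraries, at 3.43 to 9.84, lie below the 3 Tem1WT/WT traction libraries at 11.4 to 22.8.

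Genes with the most similar pattern were looked up for Acta2 and Myh11 among the 13612 genes whose log2 CPM averaged 1 or more. For Acta2 these were Cnn3 (r = 0.96), an acidic calponin found in many cells, then Cdk7, R74862, the enteric smooth muscle actin Actg2 and Focad (0.92 to 0.94 over 12 libraries). For Myh11 they were Kat6b, LOC108168747, Foxn3, Hmbox1 and Chd6 (0.91 to 0.94), none of which belongs to the contractile lists used here. For Actn1, looked up outside that rule, they were Tmem252, Dll4, Ppp4r1, Cpne1 and Dkk3 (0.97 to 0.98). Of the 150-base windows of Acta2 transcripts, 0% occurred in a transcript of another gene, so reads of that length could be assigned to it and not to its paralogs.

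Next to the smooth muscle members, non-muscle counterparts of the same machinery were described, since all cells with stress fibres use them. As for the members, calls in these lists rest on the Tem1WT/WT sham libraries, and without replicate 1 or 2 of them no gene of any list was called with traction in Tem1WT/WT scars. Of 15 non-muscle actomyosin genes, 2 rose, 1 fell and 12 did not pass with traction in Tem1WT/WT scars, against 9.15% of all genes called, with a median log2 difference of 0.59. Myh9, the non-muscle myosin IIA heavy chain, rose by 1.09 ± 0.28 (adjusted p = 0.0396), and the calponin Cnn2 by 0.78 ± 0.19 (adjusted p = 0.0355). Myh14, the IIC heavy chain, fell by 1.39 ± 0.32 on the log2 scale (adjusted p = 0.0331). The cytoplasmic actins Actb and Actg1 had 0.77 ± 0.24 and 0.91 ± 0.29 (adjusted p = 0.061 and 0.0658), and Tpm4 had 0.69 ± 0.25 (adjusted p = 0.088), where Tpm1 and Tpm2 had negative estimates. Actn4, the other non-muscle α-actinin, had -0.01 ± 0.15, beside the rise of Actn1. Of the 15, 0 were called without Tem1WT/WT traction replicate 1, against 1.86% of all genes, and the median was 0.34. Myh9 was at 0.96, Cnn2 at 0.84 and Myh14 at -1.48 in that fit (adjusted p = 0.0888, 0.0543 and 0.0567). None was called in the other comparisons. Under traction Actb was at -1.01 ± 0.24 and Actg1 at -1.14 ± 0.29 in Tem1lacZ/lacZ against Tem1WT/WT scars (adjusted p = 0.0891 and 0.0951). Leaving out Tem1WT/WT traction replicate 1 gave 0.46 for Actb and 0.42 for Actg1 with traction in Tem1WT/WT scars (adjusted p = 0.183 and 0.191), and -0.68 and -0.63 between the genotypes under traction (adjusted p = 0.179 for both). Leaving out replicate 2 of that group gave 0.93 and 1.16 with traction (adjusted p = 0.0365 and 0.0211), and -1.16 and -1.38 between the genotypes (adjusted p = 0.0293 and 0.0214), so both actins were called there. That fit called 2861 of 19400 genes with traction and 7.32% of all genes between the genotypes.

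The other smooth muscle contractile genes had no common direction. Of 27, 2 rose and 2 fell with traction in Tem1WT/WT scars, against 9.15% of all genes called, with a median log2 difference of -0.33. Pdlim7, a scaffold of the actin cytoskeleton, rose by 1.07 ± 0.20, and filamin A (Flna), which cross-links actin, by 0.93 ± 0.25 (adjusted p = 0.0252 and 0.0431). Fhl1 and Ldb3, which are also abundant in skeletal muscle, fell, with log2 differences of -2.06 ± 0.52 and -2.96 ± 0.79 (adjusted p = 0.0392 and 0.0441), beside the lower skeletal markers. Without Tem1WT/WT sham replicate 1 these were at -1.27 and -1.40, and the median of the 27 genes turned to 0.16. Actg2 had 1.56 ± 0.58 (adjusted p = 0.0951). Leaving out Tem1WT/WT traction replicate 1 gave a median of 0.07 and calls on Actg2, which rose by 2.00 (adjusted p = 0.0433), and on Pdlim3, which fell. That fit called 1.86% of all genes, and Pdlim7, Flna, Fhl1 and Ldb3 lost their calls (adjusted p = 0.0501, 0.0611, 0.075 and 0.0558). Their log2 differences there were 0.96, 1.01, -2.07 and -3.60. Without Tem1WT/WT traction replicate 3, Actg2 was at 0.67 (adjusted p = 0.404). In the other comparisons none of the 27 was called; 20 of them had lower estimates in Tem1lacZ/lacZ than in Tem1WT/WT sham scars, with a median of -0.36, or -0.16 without Tem1WT/WT sham replicate 1.

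The transcription factors that control these genes were looked at next. Of 12 tested genes for SRF and its partners, 1 rose and 1 fell with traction in Tem1WT/WT scars, against 9.15% of all genes called, with a median log2 difference of 0.37. Elk3, a ternary complex factor, rose by 1.39 ± 0.22 (adjusted p = 0.0239), and Klf4, known to repress smooth muscle genes, fell by 0.53 ± 0.15 (adjusted p = 0.0492). The adjusted p was 0.0433 for Elk3 and 0.106 for Klf4 without Tem1WT/WT traction replicate 1. Klf4 lost its call whichever Tem1WT/WT library was left out, with adjusted p of 0.067 to 0.151 and log2 differences of -0.61 to -0.49. Srf itself had 0.37 ± 0.15 (adjusted p = 0.111) and myocardin (Myocd) 0.32 ± 0.39. In the Tem1lacZ/lacZ scars Myocd had 1.19 ± 0.40 with traction (adjusted p = 0.598), beside the higher estimates of Myh11, Mylk and Lmod1. Higher estimates were not particular to Myocd there: 10 of the 12 genes had them, with a median of 0.28 and 0 called. An unadjusted p under 0.05 was reached by 6 of the 12, against 8.12% of all genes. In Tem1lacZ/lacZ against Tem1WT/WT sham scars, 11 of the 12 had lower estimates, with a median of -0.54 and 0 called; without Tem1WT/WT sham replicate 1 the median was -0.43.

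Matrix genes and other markers known from myofibroblasts, here called the matrix list, had mostly higher estimates with traction. The list also holds genes of the cell surface, such as Pdgfra, Cdh2 and Cdh11. Of 18 tested, 8 rose and 0 fell in Tem1WT/WT scars, against 9.15% of all genes called, with a median log2 difference of 1.46 against 0.07 for the contractile members. Thbs1 (thrombospondin 1) rose by 2.93 ± 0.51, Tnc (tenascin C) by 3.75 ± 0.78 and Lox (lysyl oxidase) by 1.61 ± 0.36, with adjusted p of 0.0252, 0.031 and 0.0328. The count was 2 of 18, Thbs1 and Col5a1, without Tem1WT/WT traction replicate 1, and without Tem1lacZ/lacZ sham replicate 3 it was 1, while the median was 1.60 and 1.46. Over all genes, the calls in these fits fell as well, to 1.86% and to 169 of 19366 genes. In Tem1lacZ/lacZ scars none was called and the median was 0.64, and between genotypes under traction it was -0.98 with 0 called.

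**Figure D5:**
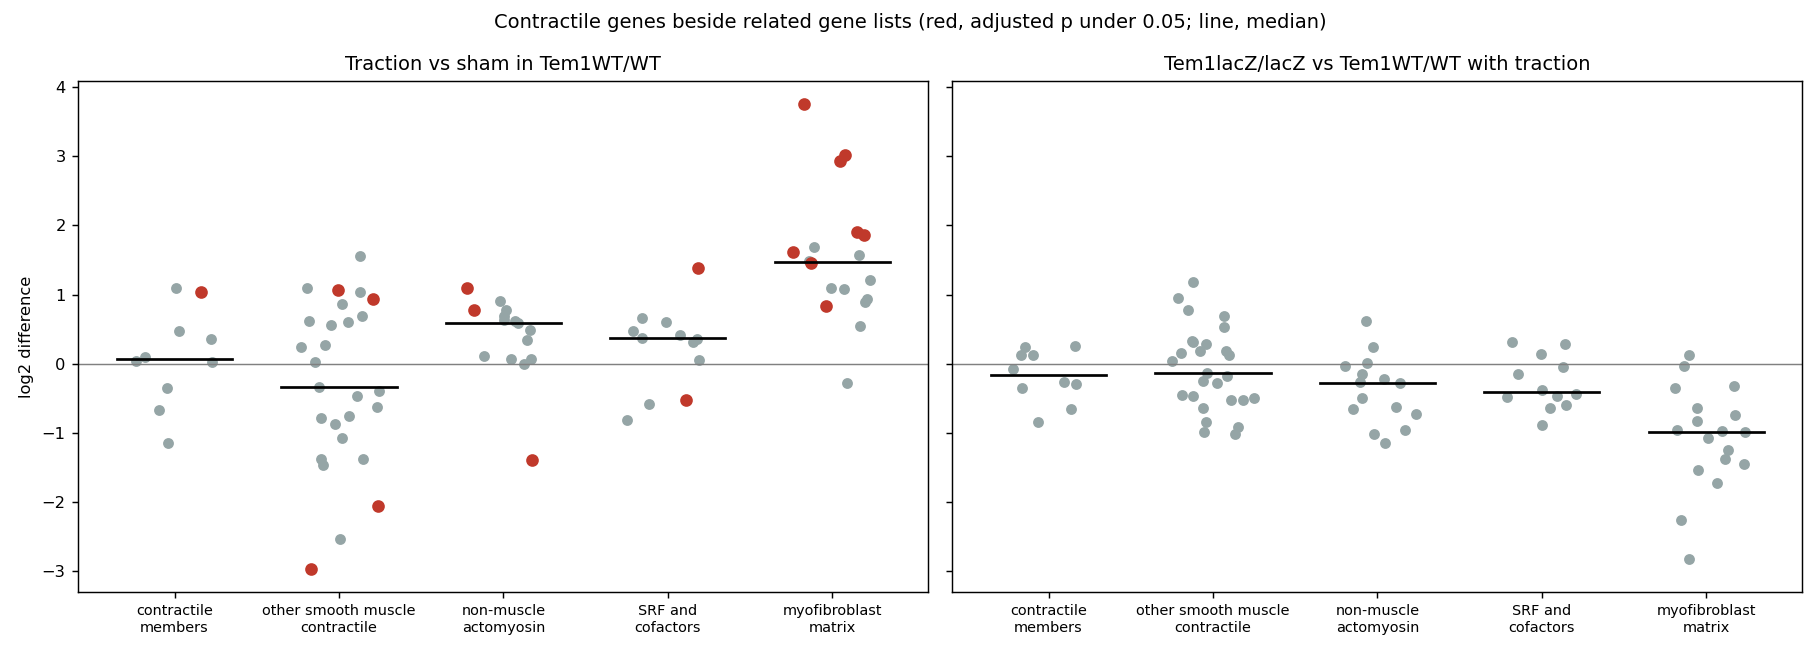
Log2 difference of each gene (points) by gene list, with the list median (line) and genes with an adjusted p under 0.05 in red, for traction in Tem1WT/WT scars (left) and for the genotypes under traction (right). The contractile members centre near 0 on the left (median 0.07), while the matrix list centres at 1.46.

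Markers of other cells moved with the same comparison, in which 9.15% of all genes were called. With traction in Tem1WT/WT scars, 6 of 9 neutrophil markers rose (Mmp9, Csf3r and Trem1 by 4.17 to 6.61 log2 units), 6 of 10 endothelial markers (Egfl7, Tie1 and Emcn by 1.12 to 1.55), 2 of 10 pericyte markers (Pdgfrb by 1.61 and Mcam by 1.2) and 2 of 10 dermal fibroblast markers (Fbln1 by 0.90 and Pdgfra by 1.45). The dermal fibroblast markers were divided, with 6 higher and 4 lower estimates of 10 and a median of 0.33. Pdgfra is also in the matrix list above. Pericytes and vessel walls express most of the members. Tem1WT/WT traction replicate 1, with 7990 CPM of neutrophil markers against 820 and 477 CPM in the other 2, had the highest neutrophil level. Without it 3 of 9 were called, and Mmp9, Csf3r and Trem1 had 2.89 to 4.18. In that fit 3 of 10 endothelial, 3 of 10 pericyte and 0 of 10 dermal fibroblast markers were called, against 1.86% of all genes, with Fbln1 at 0.94 and Pdgfra at 0.95 (adjusted p = 0.0519 and 0.0621). The summed pericyte markers were at 454 to 685 CPM with sham and 735 to 1240 CPM with traction in Tem1WT/WT scars, and at 421 to 604 and 593 to 829 CPM in Tem1lacZ/lacZ scars. Of 10 keratinocyte and hair follicle markers 1 was called, the hair follicle gene Lhx2, which fell by 1.49. Without Tem1WT/WT traction replicate 1 Lhx2 fell by 1.41, with an adjusted p of 0.0641. Of these 10 markers, 4 had higher and 6 had lower estimates, with a median of -0.34. Of 10 monocyte and macrophage markers 0 passed (the 3 highest, Lyz2, Mrc1 and Csf1r, at 0.51, -0.16 and 0.60). Of 10 adipocyte markers 0 passed as well (Fabp4, Cfd and Cidec at -0.48, -1.45 and -1.48). No list had a call in the other comparisons. The part of these cells in the levels of the contractile genes was not tested.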

How the data were processed

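The authors extracted RNA from scars, made stranded poly(A) libraries and deposited raw read counts per gene for each of the 12 libraries; their processing notes name fastp 0.20.0, HISAT2 2.1.0, featureCounts 2.0.0 and GRCm38, and the strand setting and annotation are not given in the sources used here. Counts were filtered with filterByExpr (18853 of 35976 genes tested), TMM-normalized and fitted by robust quasi-likelihood in edgeR 4.0.16 (R 4.3.3) as 1 model of the 4 groups, leaving 8 residual degrees of freedom. All tests are two-sided, with Benjamini-Hochberg adjustment over all genes tested, and called at 0.05. SE follows from the fit, and 95% intervals use 8 degrees of freedom. Each group held 3 mice, and each p-value rests on the spread between scars within groups, pooled over the 4 groups. A spread that differs between groups, as for members in the Tem1WT/WT traction group, is not modelled. With only the 6 libraries compared, 0 of 17762 genes were called with traction in Tem1WT/WT scars. No libraries were identical.

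The members and 12 gene lists beside them were chosen with earlier results of these data known; 1 further list is not reported here. Named were all members, Cd248, up to 3 called genes per list with the smallest p (without a call, the 3 most abundant), and the 5 genes most correlated with Acta2 and Myh11. Paralogs of members, Ldb3, Srf, Myocd, Actg2, Pdlim3, Col5a1 and the genes most correlated with Actn1 were named after their values were seen. Coordinates are from RefSeq (GRCm38.p6) and exon lengths from GENCODE vM21. Alternatives were DESeq2 1.42.0, limma-voom (limma 3.58.1), other filters, normalizations and thresholds, the replicate block, only the 6 libraries compared and leaving out each library; leaving out 2 libraries together was added after the data were seen. In the closing section, member estimates within 1 SE of 0 are followed only as a count. The fits were tested on simulated data. Figures used matplotlib 3.10.9.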

Additional observations from a re-analysis of the deposited data

Results flagged for a closer look

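The difference in the effect of traction between the genotypes had an unadjusted p under 0.05 for 2 of 10 members, against 8.91% of all genes. For Actn1 the effect in Tem1lacZ/lacZ minus that in Tem1WT/WT scars was -0.87 on the log2 scale, and it stayed between -0.98 and -0.64 over the 21 alternatives. For Myh11 it was 1.1, between 0.61 and 1.38. Both had an adjusted p of 0.548 with edgeR, which called 0 genes for this difference (DESeq2 69, limma-voom 0).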

How the results depend on the processing

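Of the 50 estimates of 10 members in 5 comparisons, 23 kept their direction in every alternative. Of the 21 estimates at least 1 SE from 0, 17 did, and the other 4 reversed in fits without Tem1WT/WT libraries: Myh11 with traction in Tem1WT/WT (0.15) and Lmod1 in the interaction (-0.04) without both Tem1WT/WT libraries that stood apart, Tpm2 between sham groups (0.18 without both; leaving out 1 library gave -1.21 to 0.18) and Tpm2 in the interaction (leaving out 1 library gave -0.059 to 1.33). The count of members called with traction in Tem1WT/WT was 1. It was 0 at an adjusted p under 0.01, with only the 6 libraries compared (Actn1 adjusted p = 0.0747), and without both Tem1WT/WT libraries that stood apart (0.113). Leaving out 1 library gave 0 to 2: 0 without Tem1WT/WT sham replicate 1 or 2, and 2 without Tem1WT/WT traction replicate 1, where Acta2 joined Actn1. Between genotypes under traction the count of 0 was 1 with DESeq2, and leaving out 1 library gave 0 to 1 (without Tem1WT/WT traction replicate 2). The other counts were 0 throughout; the cause was not tested.

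With the replicate block the count was 1 with traction in Tem1WT/WT and 0 in the other comparisons, and genes called overall went from 1725 to 1467. Same-numbered libraries came from different mice: r of their deviations was -0.28 to 0.21 over 18 pairs, above 0.1 in 5. The same number correlated best in 25 of 36 comparisons, each a choice among the 3 libraries of another group. That is a hint, from the data only, of something shared by libraries of the same number, and its source was not tested. Genes called with traction in Tem1WT/WT were 1725 with edgeR, 4047 with DESeq2 and 748 with limma-voom; between genotypes under traction they were 20, 2334 and 16. Upper quartile normalization moved the median of all genes to -0.12 and 0.14 in these comparisons, without moving a call on a member. A filter of at least 10 counts in every library left out Tagln, whose 3 to 37 counts limit its estimates.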
